A study of Mus musculus with 10 samples.

Results

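The genes described here are those of the constitutive proteasome subunits, the parts of the protein-degrading complex that cells carry without induction. They were chosen by gene name, as the Psma, Psmb, Psmc and Psmd genes followed by a number, leaving out the immunoproteasome genes Psmb8, Psmb9 and Psmb10. The name rule found 36 genes among the 54146 in the table. Of these, 33 had at least 1 RPKM (reads per length of the gene model and per library total) in at least 2 libraries, and they are among the 8039 genes that passed this filter. The 33 are 7 alpha ring genes (Psma1 to Psma7), 7 beta ring genes (Psmb1 to Psmb7), 6 ATPase genes of the regulatory base (Psmc1 to Psmc6) and 13 non-ATPase regulatory genes (Psmd1 to Psmd8 and Psmd10 to Psmd14). Membership rested on the name of a gene and on this filter alone. The list itself was chosen with earlier results of these data known.

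The cells measured were CD11b+ Ly-6G+ blood neutrophils, sorted from athymic BALB/c nu/nu mice on day 14 after an injection into the kidney. What was injected was vehicle, the human kidney cancer line OS-RC-2 (clear cell type) or lines derived from OS-RC-2. The OS5K_1, OS5K_2 and OS5K_3 groups had received the lines that the labels call OS5K #1, OS5K #2 and OS5K #3, read here as derivatives. The OSPa group had received the line read as parental, and the sham group vehicle. All 5 groups share the strain, the nude background and day 14, and each has 2 libraries, so the OS5K lines together have 6 libraries. Sex and age are not among the labels used here, which also do not say whether the replicates are separate animals or pools of blood. So p-values reflect only how far these samples spread, in part perhaps for technical reasons.

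The proteasome degrades proteins that carry ubiquitin chains. Its core particle is a barrel of stacked rings, with alpha subunits forming the gated outer rings and beta subunits the inner rings, where Psmb5, Psmb6 and Psmb7 hold the active sites. A regulatory particle caps the core: its base of Psmc ATPases unfolds the substrate, and Psmd subunits bind and remove ubiquitin. In immune cells Psmb8, Psmb9 and Psmb10 can take the places of Psmb5, Psmb6 and Psmb7 to give the immunoproteasome, which favours peptides for MHC class I. In many cells the transcription factor Nfe2l1 raises proteasome genes through antioxidant response elements in their promoters when degradation fails.

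That element has the core TGAC, any 3 bases, GC, and its letters were searched on both strands of RefSeq promoter windows (GRCm38.p6, 250 bases before to 50 after the start of a gene). Windows were matched for 27 of the 33 genes by name, leaving Psmb1, Psmb2, Psmb7, Psmc3, Psmd3 and Psmd7 without one. The core was found in 4 of the 27 genes (14.8%), beside 3781 of all 27025 genes with a window (14.0%). The share among proteasome genes was thus close to that of all genes, and a match describes letters and is no measured binding site. The 4 stretches are shown because they are the proteasome promoters that hold the core. They are written 5′ to 3′ on the strand of the gene, with the core in capitals.
Psmb5: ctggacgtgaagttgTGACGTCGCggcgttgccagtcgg
Psmb6: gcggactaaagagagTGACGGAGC
Psmc6: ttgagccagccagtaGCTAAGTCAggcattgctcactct
Psmd12: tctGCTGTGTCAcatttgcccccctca
Distances here count from the RefSeq start of the window, which differs from the gene coordinates given below for Psmb5 and Psmb6. The Psmb5 stretch lies at chr14:54618019-54618057 on the minus strand, with the core starting 47 bases before the RefSeq start. Its last bases lie within the gene as given below (chr14:54614119-54618022). The Psmb6 stretch is at chr11:70525333-70525356 on the plus strand, its core 9 bases before the RefSeq start, so that it ends where the RefSeq transcript begins. In Psmc6, at chr14:45329582-45329620, and in Psmd12, at chr11:107479278-107479304, both on the plus strand, the core reads on the opposite strand. It lies 227 and 247 bases before the RefSeq start.

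The libraries were of similar depth, with totals of 13765576 to 15514537 reads recovered from the RPKM values. The proteasome genes whose values gave whole reads, 28 of the 33, had 79 to 1323 reads in a library. The labelled cell type was checked against 8 neutrophil markers, and 8 of 8 passed the filter (S100a8, S100a9, Cxcr2, Ly6g, Itgam, Csf3r, Mmp9 and Il1b). Their summed level was 67530 to 82630 RPKM in OS5K, 71320 to 74720 in OSPa and 64050 to 65360 in sham libraries. Markers of other blood cells were present too: 10 of 10 erythroid genes passed, with a summed level of 45000 to 121800 RPKM in OS5K, 20840 to 27960 in OSPa and 52790 to 61250 in sham. All 8 monocyte genes passed, at sums of 162.0 to 231.5 RPKM in OS5K, 148.4 to 170.0 in OSPa and 189.1 to 208.1 in sham. All 8 platelet genes passed, at 578.9 to 1524 RPKM in OS5K, 389.6 to 687.8 in OSPa and 207.0 to 646.6 in sham. Of 4 epithelial or kidney genes in the table none passed, and Cdh16 was at 0 in every library. Fewer cells of a type and less RNA per cell cannot be told apart in these bulk libraries.

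Genes of every class of the proteasome were expressed in these neutrophils. Mean levels over the 10 libraries ran from 2.49 RPKM for Psmd1 to 32.95 for Psma1, a ratio of 13.2, with a median of 6.83. By class, the median of the mean levels was 10.6 RPKM for the alpha ring, 10.01 for the beta ring, 6.33 for the ATPases and 4.78 for the non-ATPase regulatory genes. The finished particle holds its subunits in fixed ratios, and the values here are of RNA alone. RPKM here appears to divide by the union of all exons of a gene, and that union was 1.00 to 3.36 times as long as the principal transcript (median 1.59). This divisor is read from the recovery of whole reads, which failed for Psma1, Psmb4, Psmd1, Psmd5 and Psmd7. For these genes the length, and so the level per principal transcript, is less sure. Per length of the principal transcript the medians were 13.3, 15.9, 10.8 and 9.48, which puts the beta ring above the alpha ring, both still above the regulatory classes. The order of the 33 genes had a Spearman correlation of 0.83 between the scales, over points that share the same reads.

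**Figure D1:**
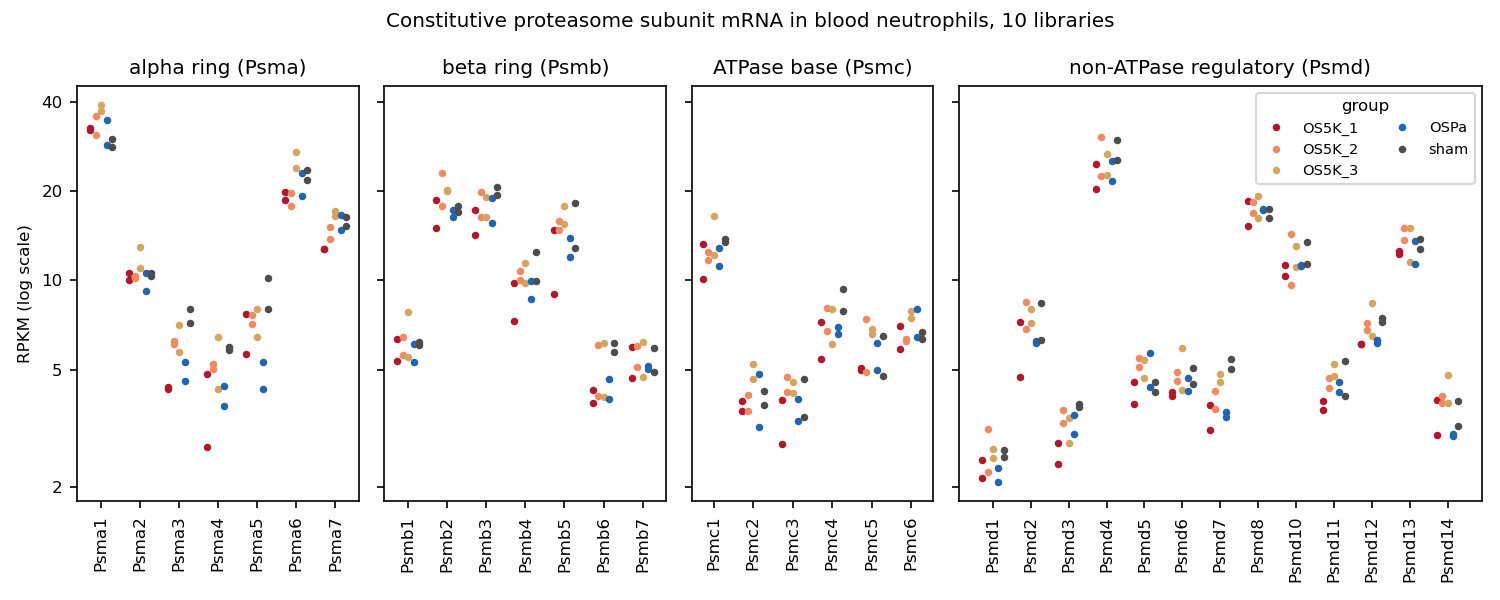
Level of each of the 33 proteasome genes in RPKM (log axis), with a point for each of the 10 libraries by group and the classes side by side. Psma1 stands highest at 28.2 to 39.1 RPKM and Psmd1 lowest at 2.08 to 3.15. Groups intermix in many genes, while both OSPa values lie below both sham values in 15 of 33 (22.2% of all genes).

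Psma1 (ENSMUSG00000030751, chr7:114264606-114276118), an alpha ring subunit, had the highest mean of all members on both length scales. It was at 32.8 and 32.2 RPKM in the OS5K_1 libraries, 30.9 and 35.8 in OS5K_2, 39.1 and 37.2 in OS5K_3, 34.7 and 28.6 in OSPa and 29.9 and 28.2 in sham. All 6 OS5K values lay above both sham values, while 1 OSPa value lay among those of OS5K and the other between the sham values. The lowest alpha ring mean was that of Psma4 (ENSMUSG00000032301, chr9:54950790-54958030), at 2.73 to 6.45 RPKM in the 6 OS5K libraries (median 4.94), 4.39 and 3.77 in OSPa and 5.83 and 5.98 in sham. Both OSPa values lay below both sham values, and the OS5K libraries overlapped both groups.

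In the beta ring the highest mean was that of the non-catalytic Psmb2 (ENSMUSG00000028837, chr4:126677630-126709714), at 14.97 to 23.1 RPKM in the 6 OS5K libraries (median 19.4), 17.2 and 16.3 in OSPa and 17.9 and 17.1 in sham. Its groups overlapped in every comparison. The lowest was that of Psmb6 (ENSMUSG00000018286, chr11:70525367-70527858), the caspase-like active site, at 3.85 to 6.13 RPKM in the 6 OS5K libraries (median 4.17), 4.64 and 3.99 in OSPa and 6.14 and 5.75 in sham. Per length of the principal transcript, Psmb3 was the second highest of all members (53.4, against 17.8 RPKM as deposited), so the order within the ring depends on the length used.

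Among the ATPases, which thread the substrate into the core, Psmc1 (ENSMUSG00000021178, chr12:100110154-100123405) was highest, at 10.1 to 16.5 RPKM in the 6 OS5K libraries (median 12.3), 12.8 and 11.2 in OSPa and 13.8 and 13.4 in sham. Psmc3 (ENSMUSG00000002102, chr2:91054009-91066369) was lowest, at 2.802 to 4.72 RPKM in the 6 OS5K libraries (median 4.19), 3.97 and 3.35 in OSPa and 4.63 and 3.46 in sham. The OS5K libraries spanned the OSPa and sham values for both genes.

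Of the non-ATPase genes, Psmd4 (ENSMUSG00000005625, chr3:95032694-95042614), a ubiquitin receptor of the regulatory particle, was the most abundant, at 20.3 to 30.4 RPKM in the 6 OS5K libraries (median 23.7), 21.7 and 25.2 in OSPa and 29.9 and 25.4 in sham. The OS5K range held every OSPa and sham value. Psmd1 (ENSMUSG00000026229, chr1:86064387-86139151), a scaffold of the base, was the lowest of the 33, at 2.16 to 3.15 RPKM in the 6 OS5K libraries (median 2.49), 2.32 and 2.08 in OSPa and 2.69 and 2.54 in sham. The OS5K libraries overlapped both other groups. Psmd1 was the member just inside the filter in mean level, and just outside it stood Psmd9 (ENSMUSG00000029440, chr5:123169413-123250131), a chaperone of base assembly, at 0.361 to 1.12 RPKM in the 6 OS5K libraries (median 0.6604), 0.492 and 0.457 in OSPa and 0.6695 and 0.652 in sham. OS5K_3 replicate 1 was the single library above 1 RPKM for Psmd9. The other 2 genes left out were close to 0: Psma8, an alpha subunit of the testis, reached at most 0.0424 RPKM, and Psmb11, a beta subunit of the thymic cortex, at most 0.0292. Named pseudogene rows of Psmb5, Psmb6 and Psmb7, 4 in all, were listed at 0 in every library.

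Psmd2 (ENSMUSG00000006998, chr16:20651652-20663414), the scaffold that docks ubiquitin shuttles, was at 4.74 to 8.43 RPKM in the 6 OS5K libraries (median 7.19), 6.17 and 6.23 in OSPa and 8.38 and 6.295 in sham. Psmd11 (ENSMUSG00000017428, chr11:80428615-80473248), a lid subunit that braces the core and regulatory particle, was at 3.65 to 5.21 RPKM in the 6 OS5K libraries (median 4.503), 4.56 and 4.201 in OSPa and 5.34 and 4.06 in sham. The OS5K range of Psmd2 held all OSPa and sham values, and that of Psmd11 held all but the higher sham value, 5.34. Over the 10 libraries Psma2 averaged 10.6 RPKM, Psmb1 6.07, Psmb3 17.8 and Psmb4 10.01, all core subunits without an active site. Of the ATPases, Psmc2 averaged 4.12 RPKM, Psmc4 7.25, Psmc5 5.82 and Psmc6 6.83. The lid genes Psmd6, Psmd8, Psmd12 and Psmd13 averaged 4.63, 17.3, 6.82 and 13.2 RPKM. Psmd5 and Psmd10, chaperones of base assembly that the name rule includes although they are not part of the finished particle, averaged 4.78 and 11.7 RPKM. Psmd13 overlaps Sirt3 on the opposite strand, a gene at 1.03 to 2.39 RPKM.

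The summed level of the 33 genes was 313 and 274 RPKM in the OS5K_1 libraries, 308 and 353 in OS5K_2, 377 and 327 in OS5K_3, 316 and 295 in OSPa and 348 and 329 in sham. The OS5K libraries spanned the other groups, and both OSPa sums lay below both sham sums. The highest sum was 1.38 times the lowest. The mean sum was 325 ± 36.2 RPKM in OS5K (SD, n = 6), 306 ± 15.4 RPKM in OSPa (SD, n = 2) and 339 ± 13.5 RPKM in sham (SD, n = 2). The core particle genes alone summed to 147 to 207 RPKM in OS5K, 173 and 154 in OSPa and 183 and 182 in sham, and the regulatory particle genes to 127 to 170 RPKM in OS5K, 144 and 140.4 in OSPa and 165 and 148 in sham.

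The highest and the lowest sum both came from OS5K libraries. In OS5K_3 replicate 1, 33 of 33 genes lay above their mean over the 10 libraries, by a median of 0.19 on the log2(RPKM + 1) scale, and 13 of them (39.4%) had their highest value there, as did 12.4% of all genes tested. In OS5K_1 replicate 2, 31 of 33 lay below their mean, with a median of -0.21, and 19 (57.6%) had their lowest value there, beside 26.8% of all genes tested. The medians over all genes tested were 0.08 and -0.11 in these libraries. The replicates of the same lines did not share these positions: OS5K_3 replicate 2 had a median of -0.01 and OS5K_1 replicate 1 had -0.03. OSPa replicate 2 came next on the low side, with 29 of 33 genes below their mean and a median of -0.15, beside -0.03 for all genes tested. OS5K_3 replicate 1 also had the most genes above 0 of the 10 libraries (16287) and OS5K_1 replicate 2 the fewest (15307). The summed immature neutrophil markers were 1403 RPKM in OS5K_3 replicate 1 and 1036 in OS5K_1 replicate 2, within the span of 741.1 to 1658 over the OS5K libraries. The 5 genes of that list that passed the filter did not move together between these libraries. Ltf, Camp and Ngp were at 105.2, 155.3 and 467.0 RPKM in OS5K_3 replicate 1. In OS5K_1 replicate 2 they were lower, at 27.97, 39.9 and 184.4. Lcn2 and Mmp8 went the other way, at 253.5 and 421.0 RPKM in OS5K_3 replicate 1 and 290.8 and 492.2 in OS5K_1 replicate 2. The summed B cell markers were 118.4 RPKM in OS5K_3 replicate 1, the highest of the OS5K libraries, and 45.0 in OS5K_1 replicate 2, the lowest of the 10 libraries. The summed monocyte markers were 216.2 and 162.0 RPKM in these libraries. The part of these values in the proteasome levels was not tested.

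**Figure D2:**
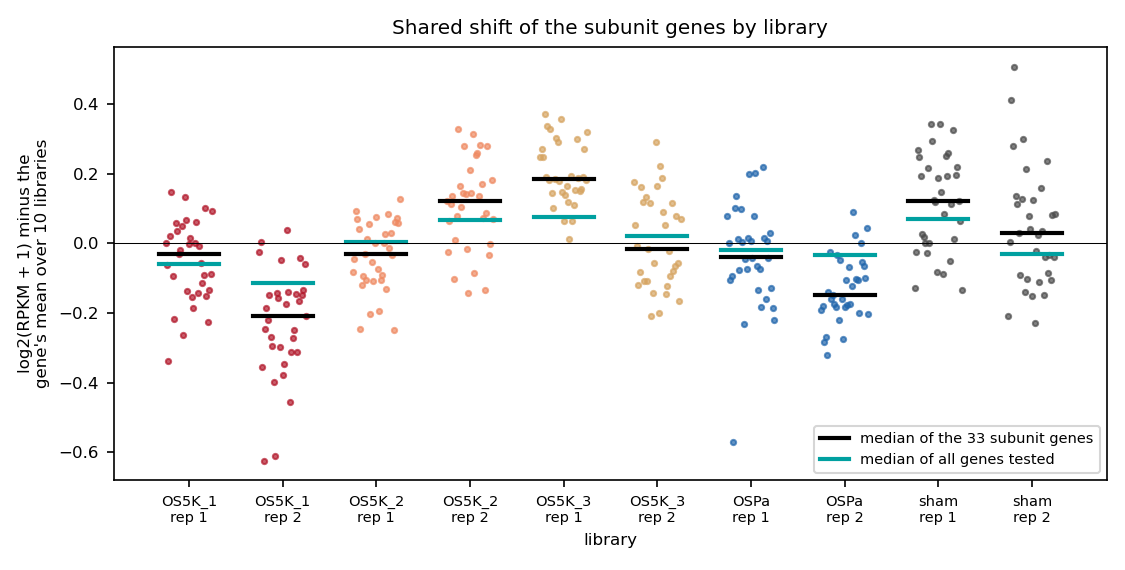
Median deviation of the 33 proteasome genes and of all 8039 genes tested from their mean over the 10 libraries, on the log2(RPKM + 1) scale, for each library. The proteasome genes depart further than all genes in OS5K_1 replicate 2 (-0.21 against -0.11) and OS5K_3 replicate 1 (0.19 against 0.08).

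Single proteasome genes varied about as much as other genes. Their SD over the 10 libraries had a median of 0.17 on the log2 scale (0.10 to 0.31), beside 0.18 for all genes tested, and within groups 0.15 beside 0.17. The spread between replicates exceeded counting noise: among them the chi-square of the reads per degree of freedom had a median of 4.62 over the 28 genes with whole reads (1.99 to 21.1), where counting alone gives about 1, and 5.78 over 6541 genes tested.

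No proteasome gene passed the test in any comparison. The test was limma on log2(RPKM + 1) over the 8039 genes, with p-values adjusted by Benjamini-Hochberg and called under 0.05. A p above the threshold does not show that groups did not differ. The comparisons share libraries, so their values stand side by side and are not independent of each other.

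The first comparison set the derived OS5K lines against OSPa. It called 0 of the 33 genes, beside 28 of all 8039 (0.348%). On the recovered reads limma-voom also called 0 of the 33, and 20 genes in all. At an unadjusted p under 0.05 there were 2 of 33, Psma5 and Psmd14, beside 7.89% of all genes. The log2 fold changes of the 33 had a median of 0.08 (-0.10 to 0.48), beside 0.02 for all genes tested, and 27 were above 0 (54.6% of all genes were), with 6 below (45.4%). By class the medians were 0.13 for the alpha ring, 0.09 for the beta ring, 0.06 for the ATPases and 0.06 for the non-ATPase genes. Those below 0 were Psma6, Psma7, Psmb3, Psmc6, Psmd3 and Psmd5. Without OSPa replicate 2 the median was 0.01, that of all genes 0.01, with 20 above 0, and leaving out any OS5K library gave medians of 0.03 to 0.13. In this comparison 10 of 10 erythroid genes were higher in OS5K, 4 of them called, 8 of 8 monocyte genes were higher with 2 called, and 8 of 8 platelet genes were higher with 0 called. Lower in OS5K were 3 of 5 immature neutrophil genes tested, 5 of 8 neutrophil genes and 4 of 7 B cell genes, with 0 called. The adult hemoglobin genes took 3.46 to 9.52% of the recovered reads in OS5K, 1.59 and 2.19% in OSPa and 4.80 and 4.14% in sham libraries. With values rescaled to the total outside hemoglobin the median was 0.12, with 29 above 0 and 0 called. Other scalings gave a smaller lean. With the median of all tested genes set equal in every library, 23 of 33 were above 0, with a median of 0.04. After quantile normalization 24 were above 0, with a median of 0.045, and 0 were called in either case.

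Psma5 (ENSMUSG00000068749, chr3:108256926-108279974), an alpha ring subunit, was the single member whose OS5K values all lay above both OSPa values (1 of 33, beside 5.45% of all genes), and for none did they all lie below (0 of 33, beside 2.9%). It was at 7.73 and 5.64 RPKM in the OS5K_1 libraries, 7.11 and 7.66 in OS5K_2, 7.98 and 6.43 in OS5K_3, 4.295 and 5.302 in OSPa and 8.01 and 10.2 in sham. The 2 OSPa libraries were the lowest of the 10 and the 2 sham libraries the highest, with all 6 OS5K libraries between. It averaged 7.09 ± 0.903 RPKM in OS5K (SD, n = 6), 4.80 ± 0.712 RPKM in OSPa (SD, n = 2) and 9.11 ± 1.55 RPKM in sham (SD, n = 2). The log2 fold change of OS5K against OSPa was 0.48 (SE 0.15, adjusted p = 0.342 by limma), that of OSPa against sham -0.80 (SE 0.18, adjusted p = 0.618) and that of OS5K against sham -0.32 (SE 0.15, adjusted p = 0.494). The gene had 79 to 193 reads in a library. None of the 3 differences passed the test, and no member differed more in either comparison with OSPa.

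Psmd14 (ENSMUSG00000026914, chr2:61711694-61800376), the deubiquitinase that removes ubiquitin chains before degradation, had the next smallest p. It was at 3.95 and 3.01 RPKM in the OS5K_1 libraries, 4.06 and 3.86 in OS5K_2, 4.79 and 3.86 in OS5K_3, 2.98 and 3.03 in OSPa and 3.23 and 3.91 in sham. OSPa libraries were at the low end, yet OS5K_1 replicate 2, at 3.01, lay between them. The log2 fold change of OS5K against OSPa was 0.29 (SE 0.12, adjusted p = 0.607 by limma). Psmb2, given above, differed by 0.17 (SE 0.12, adjusted p = 0.884 by limma) on the log2 scale.

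**Figure D3:**
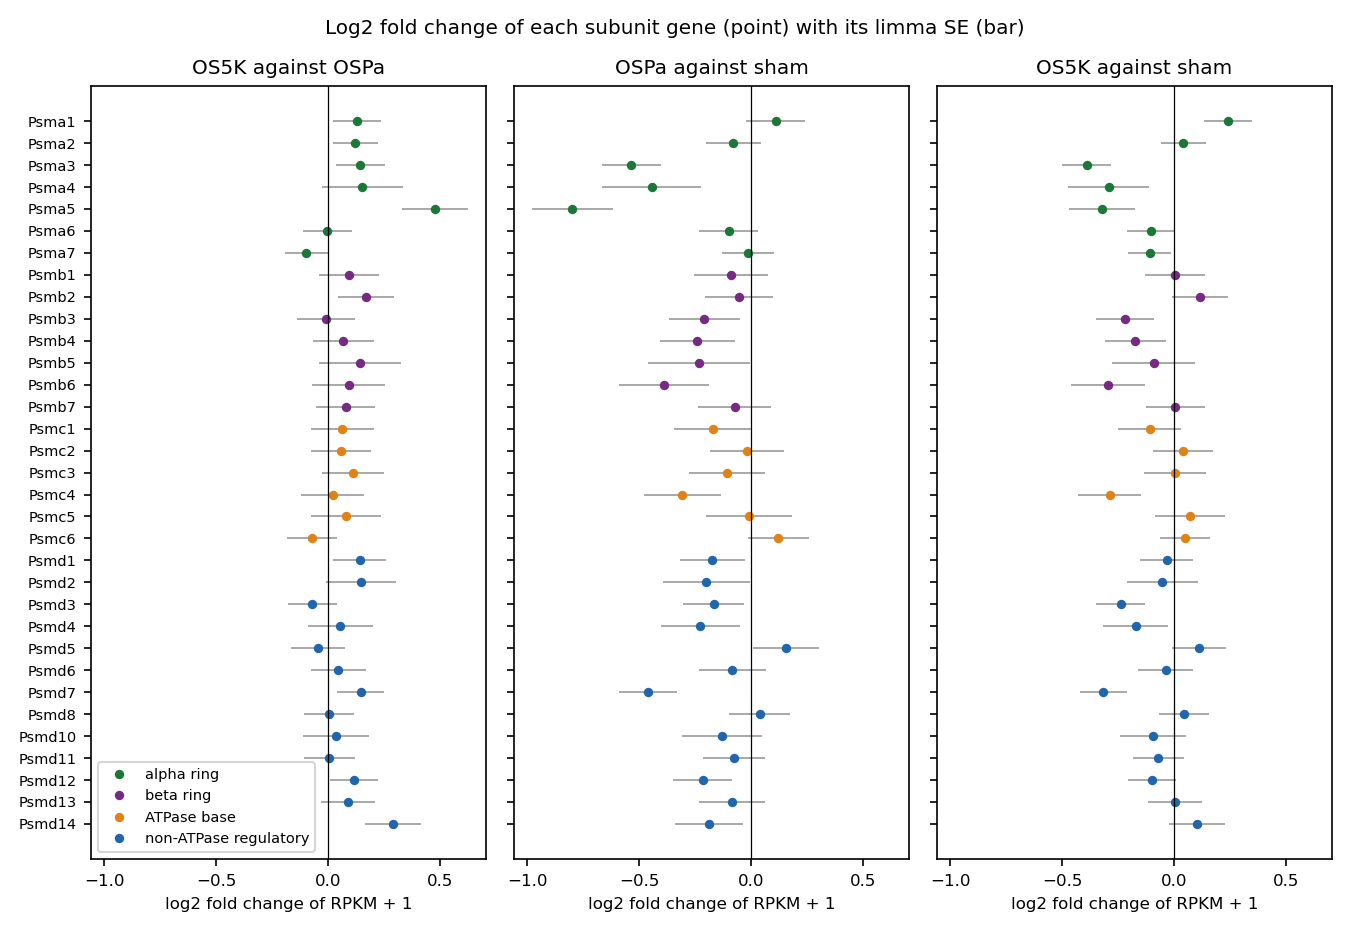
Log2 fold change of each of the 33 genes on the RPKM + 1 scale (points, with the limma SE as bars) for OS5K against OSPa, OSPa against sham and OS5K against sham, coloured by class. The points for OSPa against sham lie mostly below 0 (29 of 33), and Psma5 departs furthest in the comparisons with OSPa (0.48 and -0.80).

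OSPa against sham set the line read as parental against vehicle. Here too 0 of 33 genes were called, beside 0 of all 8039 (0.0%), also by limma-voom. At an unadjusted p under 0.05 there were 3 of 33 (Psma3, Psma5 and Psmd7), beside 5.97% of all genes. The fold changes of 29 of the 33 were below 0 (87.9%), beside 58.7% of all genes, with a median of -0.13 (-0.80 to 0.16) beside -0.04. The 4 above 0, beside 41.3% of all genes, were Psma1, Psmc6, Psmd5 and Psmd8. By class the medians were -0.10 for the alpha ring, -0.21 for the beta ring, -0.06 for the ATPases and -0.17 for the non-ATPase genes. Both OSPa values lay below both sham values for 15 of 33 (45.5%), beside 22.2% of all genes, and for none were they both above, beside 12.4%. Those 15 were 3 of 7 alpha ring genes (Psma3, Psma4, Psma5), 2 of 7 beta ring genes (Psmb3, Psmb6), 2 of 6 ATPases (Psmc1, Psmc4) and 8 of 13 non-ATPase genes (Psmd1, Psmd2, Psmd3, Psmd4, Psmd7, Psmd10, Psmd12, Psmd14). With the median of all tested genes set equal in every library, 25 of 33 were below 0, with a median of -0.07, and without OSPa replicate 2 the median was -0.09 with 24 below 0. In this comparison 9 of 10 erythroid, 7 of 8 monocyte and 7 of 7 B cell genes were also below 0, none of them called. Other lists went the other way: 8 of 8 platelet genes (median 0.44), 5 of 5 immature neutrophil genes tested (median 0.30) and 5 of 8 neutrophil genes were above 0, with 0 called. With values rescaled outside hemoglobin the proteasome median was -0.17, with 29 below 0. The part of the cell type markers in these values was not tested.

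Psma3 (ENSMUSG00000060073, chr12:70974621-70996347), an alpha ring subunit, had the smallest p over all 5 groups among the members. It was at 4.37 and 4.31 RPKM in the OS5K_1 libraries, 6.24 and 6.09 in OS5K_2, 7.06 and 5.75 in OS5K_3, 5.31 and 4.57 in OSPa and 7.18 and 8.03 in sham. Both sham values lay above all others, and the OS5K_1 libraries were the lowest of the 10. The log2 fold change of OSPa against sham was -0.54 (SE 0.13, adjusted p = 0.708 by limma), and that of OS5K against sham -0.39 (SE 0.11, adjusted p = 0.279 by limma). Over any of the 5 groups its adjusted p was 0.287 by the limma F test. The gene overlaps 3110056K07Rik on the opposite strand over chr12:70991615-70996347, and that gene was at 8.31 to 10.3 RPKM. Its OS5K_2 values, 10.3 and 10.1, were the highest of the 10 libraries. The use of strand in counting is not given in the sources used here, and reads of both genes cannot be told apart.

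Psmd7 (ENSMUSG00000039067, chr8:107580381-107588464), the lid partner of Psmd14, was at 3.81 and 3.12 RPKM in the OS5K_1 libraries, 4.24 and 3.67 in OS5K_2, 4.84 and 4.55 in OS5K_3, 3.59 and 3.46 in OSPa and 5.43 and 5.04 in sham. The 2 sham libraries were the highest of the 10, and the OSPa values lay within the OS5K range. The log2 fold change of OSPa against sham was -0.46 (SE 0.13, adjusted p = 0.708 by limma), and that of OS5K against sham -0.32 (SE 0.11, adjusted p = 0.349 by limma). Psma4, given above, differed between OSPa and sham by -0.44 (SE 0.22, adjusted p = 0.8001 by limma).

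**Figure D4:**
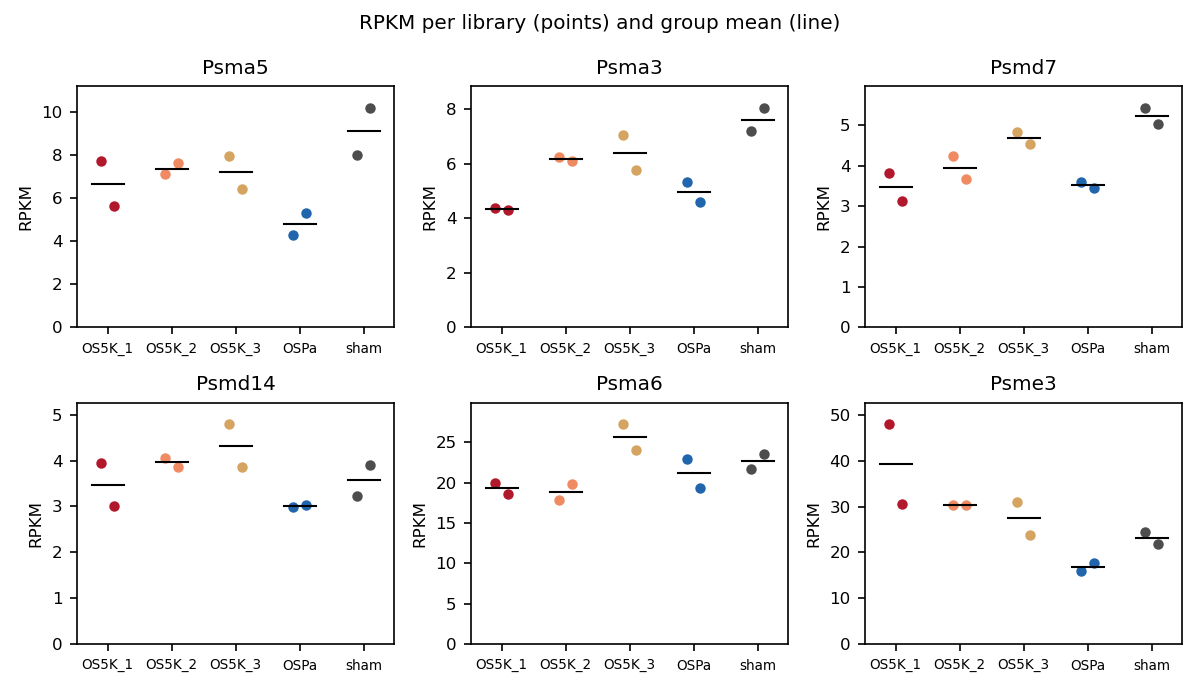
RPKM of Psma5, Psma3, Psmd7, Psmd14, Psma6 and of the activator gene Psme3 in each of the 10 libraries, by group. Psma5 is lowest in OSPa (4.30 and 5.30) and highest in sham (8.01 and 10.2), Psma3 and Psmd7 are highest in sham, and Psme3 reaches 48.0 in OS5K_1 replicate 1.

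OS5K against sham gave 0 called of 33, beside 0 of 8039 (0.0%), also by limma-voom. At an unadjusted p under 0.05 there were 2 of 33 (Psma3 and Psmd7), beside 10.4% of all genes. The fold changes had a median of -0.07 (-0.39 to 0.24), beside -0.02 for all genes, with 20 of 33 below 0, beside 54.5%, and 13 above, beside 45.5%. All OS5K values lay below both sham values for 4 of 33 (Psma3, Psma5, Psmd3 and Psmd7), beside 5.17%, and above both for 1 of 33 (Psma1), beside 6.66%. Psma1 differed by 0.24 (SE 0.11, adjusted p = 0.481 by limma). Psmd3 (ENSMUSG00000017221, chr11:98682554-98695979), a lid subunit, was at 2.41 to 3.65 RPKM in the 6 OS5K libraries (median 3.07), 3.02 and 3.51 in OSPa and 3.83 and 3.73 in sham, a difference of -0.24 (SE 0.11, adjusted p = 0.494 by limma). Without sham replicate 1 the median over the members was -0.01, beside 0.03 for all genes, and leaving out any OS5K library gave -0.10 to -0.02.

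Over any of the 5 groups the limma F test called 0 of 33, beside 1 of 8039 (0.0124%), and limma-voom called 0 of the 33 and 4 genes in all. At an unadjusted p under 0.05 there were 3 of 33 (Psma3, Psma5 and Psmd7), beside 8.53% of all genes. Among the 3 OS5K lines it called 0 of 33, beside 0 of 8039 (0.0%), as did limma-voom, with 3 of 33 (Psma3, Psma6 and Psma7) at an unadjusted p under 0.05, beside 6.66%.

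The alpha ring genes gave the smallest p among the lines. Psma6 (ENSMUSG00000021024, chr12:55384222-55418454) was at 19.95 and 18.7 RPKM in the OS5K_1 libraries, 17.9 and 19.8 in OS5K_2, 27.2 and 24.02 in OS5K_3, 22.99 and 19.3 in OSPa and 21.8 and 23.5 in sham. Psma7 (ENSMUSG00000027566, chr2:180036374-180042433) was at 12.8 and 12.8 RPKM in the OS5K_1 libraries, 13.8 and 15.2 in OS5K_2, 17.2 and 16.4 in OS5K_3, 16.6 and 14.8 in OSPa and 15.3 and 16.4 in sham. For both genes the OS5K_3 libraries lay above the other 4 OS5K libraries. The adjusted p by the limma F test among the lines was 0.732 for Psma6, Psma7 and Psma3. The OSPa and sham values of Psma6 lay between those of OS5K_3 replicate 1 and OS5K_1 replicate 2. Those of Psma7 lay above both OS5K_1 libraries. The OSPa values of Psma7 overlapped OS5K_2 and OS5K_3. Both its sham values lay above both OS5K_2 values and narrowly below both OS5K_3 values (16.37 against 16.44 at the closest).

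The catalytic subunits were compared with their immunoproteasome counterparts. Psmb5 (ENSMUSG00000022193, chr14:54614119-54618022), the chymotrypsin-like site, was at 14.8 and 8.98 RPKM in the OS5K_1 libraries, 14.8 and 15.9 in OS5K_2, 17.8 and 15.5 in OS5K_3, 11.98 and 13.9 in OSPa and 18.3 and 12.8 in sham. OS5K_1 replicate 2 was far below the other libraries of its set. Its counterpart Psmb8 (ENSMUSG00000024338, chr17:34197721-34201454) was at 26.4 and 20.01 RPKM in the OS5K_1 libraries, 25.9 and 28.5 in OS5K_2, 34.5 and 26.95 in OS5K_3, 25.4 and 32.8 in OSPa and 31.9 and 56.5 in sham. Psmb8 exceeded Psmb5 in 10 of 10 libraries, and sham replicate 2 held the highest Psmb8 value. The level of Psmb5 per level of Psmb8 was 0.45 to 0.58 in the OS5K libraries, 0.47 and 0.42 in OSPa and 0.57 and 0.23 in sham.

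Psmb9 (ENSMUSG00000096727, chr17:34181988-34187764) was at 25.96 and 21.7 RPKM in the OS5K_1 libraries, 24.3 and 28.1 in OS5K_2, 30.3 and 22.6 in OS5K_3, 21.2 and 36.2 in OSPa and 27.5 and 56.5 in sham. Per level of it, Psmb6 was at 0.15 to 0.22 in the OS5K libraries, 0.22 and 0.11 in OSPa and 0.22 and 0.10 in sham, below 1 in 10 of 10 libraries. Psmb7 (ENSMUSG00000026750, chr2:38588036-38644087), the trypsin-like site, was at 4.68 to 6.18 RPKM in the 6 OS5K libraries (median 5.53), 5.02 and 5.13 in OSPa and 5.91 and 4.899 in sham, and Psmb10 (ENSMUSG00000031897, chr8:105935735-105938444) at 6.45 and 3.18 RPKM in the OS5K_1 libraries, 5.67 and 6.43 in OS5K_2, 7.73 and 5.62 in OS5K_3, 5.05 and 8.26 in OSPa and 7.46 and 16.1 in sham. Psmb10 exceeded Psmb7 in 9 of 10 libraries as deposited and in 1 of 10 per length of the principal transcript, so their order depends on the length used. Psmb8 and Psmb9 exceeded their counterparts in 10 of 10 libraries on both scales. Whole reads were not recovered for Psmb8 and Psmb9, so the length behind their second scale is less sure. Psmb7 overlaps Nek6 on the opposite strand, a gene at 1.503 to 2.15 RPKM.

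The constitutive genes spread less between libraries than the immunoproteasome genes, a description with no test. The median SD over the 10 libraries was 0.17 on the log2 scale for the 33 constitutive genes and 0.41 for the 3 immunoproteasome genes, and within groups 0.15 and 0.43. Summed, Psmb5, Psmb6 and Psmb7 were at 17.9 to 30.4 RPKM, and Psmb8, Psmb9 and Psmb10 at 44.9 to 129 RPKM. In OS5K against sham the 3 were below 0 in log2 fold change, at -0.65 (Psmb8), -0.62 (Psmb9) and -0.85 (Psmb10), none called by limma (smallest adjusted p = 0.34), with 3 of 3 at an unadjusted p under 0.05, beside 10.4% of all genes. These values rest on the sham libraries: without sham replicate 2 they were -0.25, -0.11 and -0.34, and without sham replicate 1 they were -1.05, -1.13 and -1.35, the adjusted p by limma over all alternatives running from 0.107 to 0.881 for the 3 genes. The sham libraries themselves differed for these genes, at 31.9 and 56.5 RPKM for Psmb8, with the first inside the OS5K range.

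**Figure D5:**
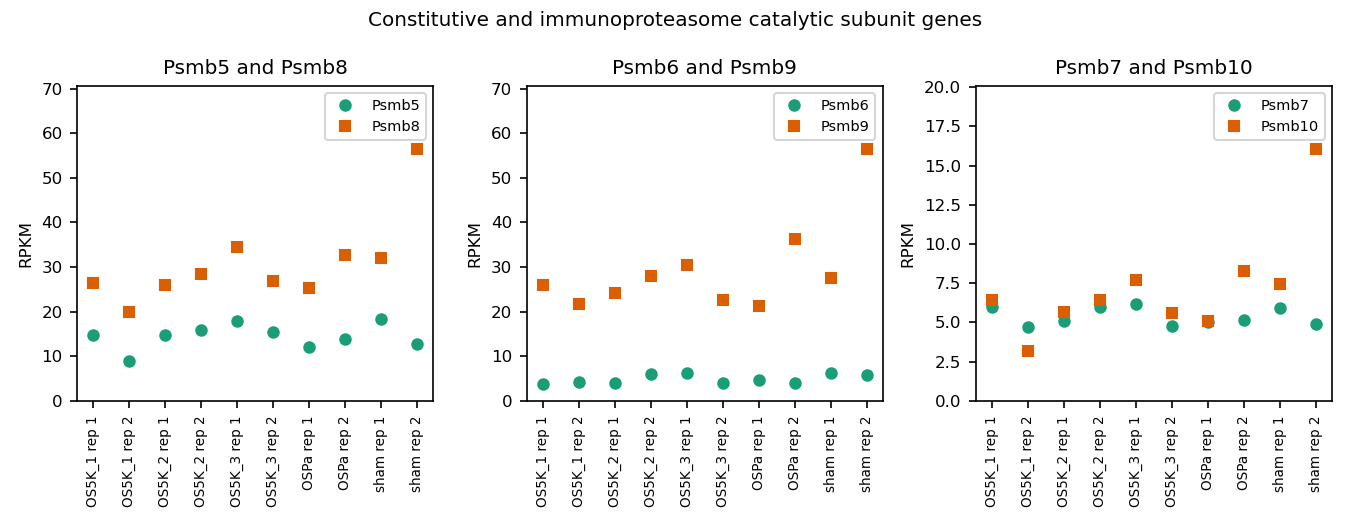
RPKM of the catalytic genes Psmb5, Psmb6 and Psmb7 (circles) and of their immunoproteasome counterparts Psmb8, Psmb9 and Psmb10 (squares) in each of the 10 libraries. Psmb5 and Psmb6 lie below Psmb8 and Psmb9 in every library, and the 3 squares peak in sham replicate 2 (56.5, 56.5 and 16.1 RPKM).

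Genes that activate, build and feed the proteasome were read from lists of 33 names, of which 32 were in the table and 31 were tested. None was called in any of the 5 comparisons. Psme3 (ENSMUSG00000078652, chr11:101316213-101323537), the gene of a nuclear proteasome activator, was at 47.99 and 30.5 RPKM in the OS5K_1 libraries, 30.4 and 30.5 in OS5K_2, 31.1 and 23.8 in OS5K_3, 16.02 and 17.7 in OSPa and 24.6 and 21.9 in sham. All 6 OS5K values lay above both OSPa values, and all but OS5K_3 replicate 2 above both sham values. The log2 fold change was 0.87 (SE 0.17, adjusted p = 0.0839 by limma) against OSPa and 0.43 (SE 0.17, adjusted p = 0.4202 by limma) against sham. Without OS5K_1 replicate 2, Psme3 passed the test against OSPa, with a log2 fold change of 0.98 and an adjusted p of 0.0151 by limma, and its adjusted p over all alternatives was 0.0151 to 0.418. The interferon-induced activator genes Psme1 and Psme2 were at 16.2 to 22.2 and 8.32 to 15.4 RPKM in OS5K libraries. In OSPa they were at 19.6 and 20.9 (Psme1) and 9.45 and 15.7 (Psme2), and in sham at 22.4 and 29.8 (Psme1) and 16.3 and 26.7 (Psme2).

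Of the assembly factors, 4 of 5 in the table were tested. All 4 were above 0 in OS5K against OSPa (median 0.28) and below 0 in OSPa against sham (median -0.15). Pomp (ENSMUSG00000029649, chr5:147860461-147876456), which completes the core particle, was at 4.49 and 3.83 RPKM in the OS5K_1 libraries, 4.43 and 3.95 in OS5K_2, 5.56 and 5.04 in OS5K_3, 3.62 and 3.27 in OSPa and 3.898 and 4.04 in sham. Both OSPa values were below all others. The difference between OS5K and OSPa was 0.31 (SE 0.10, adjusted p = 0.376 by limma). Psmg4 (ENSMUSG00000071451, chr13:34162964-34178173), a chaperone of core assembly, was at 0.472 and 0.627 RPKM in the OS5K_1 libraries, 1.12 and 2.09 in OS5K_2, 2.02 and 2.23 in OS5K_3, 1.04 and 0.841 in OSPa and 1.396 and 0.881 in sham. OS5K_1 held the lowest values and OS5K_3 values of at least 2.02. These rest on only 4 to 18 reads in a library, and the adjusted p among the lines was 0.732 by the limma F test.

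Nfe2l1 (ENSMUSG00000038615, chr11:96817414-96829968), the transcription factor of the proteasome genes, was at 7.199 to 10.5 RPKM in the 6 OS5K libraries (median 8.78), 8.04 and 8.64 in OSPa and 10.5 and 7.701 in sham. Nfe2l2 (ENSMUSG00000015839, chr2:75675513-75704641), its relative in the oxidative stress response, was at 24.9 to 32.1 RPKM in the 6 OS5K libraries (median 29.9), 33.3 and 33.1 in OSPa and 29.3 and 35.1 in sham. For Nfe2l1 the range of the 6 OS5K libraries overlapped OSPa and sham, while both OSPa values of Nfe2l2 lay above all 6 OS5K values. With Ddi2 and Ngly1, which activate Nfe2l1, none of the 4 had an unadjusted p under 0.05 in any of the 5 tests. The 4 other regulatory particle genes (Adrm1, Sem1, Usp14 and Uchl5) had none either, and Sem1 was at 103 to 120.3 RPKM in the 6 OS5K libraries (median 111), 136 and 92.2 in OSPa and 95.6 and 107 in sham. Of 6 shuttle and segregase genes, 1 had an unadjusted p under 0.05 in OS5K against OSPa (beside 7.89% of all genes), 1 over any of the 5 groups (8.53%), 1 among the OS5K lines (6.66%) and 0 in each of the other 2 comparisons (5.97% and 10.4%).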

How the data were processed

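RNA-seq values of 10 libraries from sorted mouse neutrophils were used, with 5 groups of 2 libraries taken from the labels. Per the labels' protocols, total RNA came from an RNeasy column, cDNA from SMART-Seq v4 and sequencing libraries from Ion Xpress Plus reagents. The authors deposited one table of RPKM values, a column to a library. The submitters' processing notes give mm10 as the build, and gene coordinates are on it. Aligner, counter, strand use and treatment of multiply mapped reads are not stated in the labels or the table, that is, not given in the sources used here. Of 54146 gene identifiers, 99.9% matched the GENCODE annotation of that build.

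Whole reads were recovered from the RPKM steps for 84.7% of the values above 0, within 0.02 reads. They carry no molecular identifiers. The 8039 genes reaching 1 RPKM in 2 or more libraries were fitted with limma 3.58.1 (trend and robust) in R 4.3.3 on log2(RPKM + 1), which understates changes of low genes. A single model held 5 group means and left 5 residual degrees of freedom. It gave the OS5K mean minus OSPa and minus sham, OSPa minus sham, an F test over all groups and an F test among OS5K lines. The call was an adjusted p under 0.05 (Benjamini-Hochberg over all genes fitted). A count test had been planned in case the table held counts, and RPKM called for limma instead. The scripts were tested on simulated data.

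The genes, lists and tests were chosen with earlier results of these data known. Chosen to be given with values were, per class, the genes of highest and lowest mean and, in each test, the 4 of smallest p. The catalytic subunits with Psmd2, Psmd4, Psmd11 and Psmd14 were added. Some are given in every library, and others as a range and median over the 6 OS5K libraries. From each context list values were given for at most 3 genes. Some genes that this rule names are left out of the text, though they stay in the counts. Alternatives were other normalizations, pseudocounts of 0.1 and 5, no filter, a filter at 5 RPKM, other variance settings, fits of the compared groups, a replicate block and leaving out each library. Chosen after seeing the data were limma-voom on recovered reads, a crossed pairing and the length of the APPRIS principal transcript. Replicate numbers did not pair the samples in one order.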

Additional observations from a re-analysis of the deposited data

Results flagged for a closer look

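Within the 6 OS5K libraries, 52 series of values were checked for a library standing far from the others, by Dixon's ratio of gap to range against a critical value of 0.625. Chance flags about 1 in 20 series when all 6 libraries come from 1 population. Here they come from 3 lines, and some series share genes, so that rate is a rough guide. Flagged were 3 series, with no explanation tested. Psmb5 was at 8.98 RPKM in OS5K_1 replicate 2, below the 14.8 to 17.8 RPKM of the other OS5K libraries (gap over range 0.66). Psmb7 per level of Psmb10 was 1.47 in that same library, above 0.80 to 0.93 in the others (0.80). Psme3 was at 48.0 RPKM in OS5K_1 replicate 1, above 23.8 to 31.1 RPKM in the others (0.70), and that library also had the highest hemoglobin share, 9.52%, beside 3.46 to 5.16% in the others.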

How the results depend on the processing

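No proteasome gene was called in any of the 105 combinations of comparison and setting. The smallest adjusted p of a proteasome gene over them was 0.194 in OS5K against OSPa, 0.305 in OSPa against sham, 0.226 in OS5K against sham, 0.283 over any of the 5 groups and 0.658 among the OS5K lines, all by limma. Of 466 alternatives for 22 fold changes of single genes, 464 kept their direction and side of the threshold, none reversed, and the other 2 passed it without OS5K_1 replicate 2, that of Psme3 in OS5K against OSPa among them. Counts over all genes moved more. With no filter on low values, limma called 15 genes in OS5K against OSPa (28 in the fit as given), 9 in OSPa against sham, 2 in OS5K against sham, 14 over any of the 5 groups and 7 among the lines. Over any of the 5 groups (1 gene) limma-voom called 4, and 0 were called with the trend and robust settings off, with the rescaling outside hemoglobin and with the replicate block.

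The replicate block called 0 genes over any of the 5 groups (1 without it), 21 in OS5K against OSPa and 0 in each of the other 3 comparisons, with 0 proteasome genes in any. Its numbers did not pair the samples in one order: correlations of replicate differences between groups ran from -0.38 to 0.45 over 10 pairs of groups. OS5K_1 had 0.45 with OS5K_3 and -0.33 with OS5K_2, and OS5K_2 had -0.38 with OS5K_3. Exchanging the numbers of sham, since OSPa and sham had -0.19, called 0 genes. An exchange of the OS5K_2 numbers was not tried. OS5K_1 replicate 1, OS5K_2 replicate 2 and OS5K_3 replicate 1 had the higher proteasome sum of their line (313, 353 and 377 RPKM). They also had its higher immature neutrophil sum (1658, 1222 and 1403 RPKM) and its lower platelet sum (578.9, 677.9 and 658.0 RPKM). The part of this shared difference was not tested.

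Leaving out each of the 10 libraries in turn gave 1 to 60 genes in OS5K against OSPa, 0 to 3 in OSPa against sham, 0 to 30 in OS5K against sham, 0 to 13 over any of the 5 groups and 0 to 0 among the lines. For OS5K against OSPa it was 60 without OS5K_1 replicate 2, 15 without either OS5K_2 library, 7 without either OS5K_3 library, 5 without OSPa replicate 2 and 1 without OSPa replicate 1. The 3, 30 and 13 all came without sham replicate 1. The medians of the proteasome genes ran from 0.01 to 0.14, from -0.19 to -0.09 and from -0.12 to -0.01 in the first 3 comparisons. With 2 libraries a group and 79 to 1323 reads in the 28 proteasome genes with whole reads, the differences seen here were not resolved from the spread between libraries.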
